A study of Mus musculus with 3 samples.

Results

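Long noncoding RNA genes that reached a mean normalized count of at least 10 were described in proximal incisor mesenchyme of Arid1a and Arid1b double knockout (DKO) mice. The rows were taken from the deposited table of gene-level values by its own gene type column. A row was a member when it was listed as lincRNA (intergenic), antisense, lncRNA, sense_intronic, sense_overlapping, bidirectional_promoter_lncRNA or processed_transcript, lay on an autosome and had a mean of at least 10 over the 3 DKO libraries. H19 and Meg3 were left out. Of 1634 eligible rows 85 were members, of 19381 rows in the table. The members were chosen by their mean level in these same libraries, so levels are given as a description without a test.

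The mice carried Gli1-CreER, a Cre recombinase that the Gli1 promoter drives and tamoxifen switches on, with floxed Arid1a and floxed Arid1b (Gli1-CreER;Arid1afl/fl;Arid1bfl/fl). They received 1.5 mg of tamoxifen per 10 g of weight by injection, and the incisor was taken 4 days later from mice that were 1 month old. All 3 libraries, numbered 1 to 3, belong to this group, no other group was analysed here, and Cre acts only in cells that express Gli1, so the tissue also holds cells with intact alleles. The labels do not state whether each library is a separate animal, so every SD describes these libraries only and may be technical.

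Arid1a and Arid1b encode alternative subunits of the canonical BAF complex, which moves nucleosomes at promoters and enhancers. Long noncoding RNAs are transcribed and often spliced like messenger RNAs but are not known to be translated; some act in the nucleus on chromatin or in nuclear bodies, some bind proteins or miRNAs in the cytoplasm, and others serve as precursors from which snoRNAs or miRNAs are cut. Many are transcribed away from the promoter of a neighbouring coding gene, among them several named after the developmental regulators that pattern the jaw and teeth.

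Of the 12 miRNA genes that lie inside members, those of Mir100hg, Dnm3os and Dleu2 are shown because these members are known as miRNA precursors. The mature sequences are RefSeq's (GRCm38.p6), with the seed, bases 2 to 8, in capitals. Not every mature sequence of these genes is shown: miR-100-3p, miR-125b-1-3p, miR-15a-3p and miR-16-1-3p are left out. For Mirlet7a-2 only the sequence let-7a-2-3p was found within Mir100hg. The mature miRNAs themselves were not measured here.
miR-100-5p: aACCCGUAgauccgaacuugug
let-7a-2-3p: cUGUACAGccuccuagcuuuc
miR-125b-5p: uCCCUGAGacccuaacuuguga
miR-199a-5p: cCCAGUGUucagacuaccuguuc
miR-199a-3p: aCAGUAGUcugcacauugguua
miR-214-5p: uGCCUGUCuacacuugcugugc
miR-214-3p: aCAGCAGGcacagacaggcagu
miR-15a-5p: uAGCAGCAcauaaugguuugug
miR-16-5p: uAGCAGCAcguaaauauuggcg
The first 3 lie in Mir100hg on chromosome 9, the next 4 in Dnm3os on chromosome 1 and the last pair in Dleu2 on chromosome 14. Among the sequences shown, miR-15a-5p and miR-16-5p share the seed AGCAGCA, while each of the others has a seed of its own.

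A pair of promoter windows beside their coding neighbours are shown because AW011738 and Gm20559, together with the interferon-stimulated coding genes Isg15 and Samd9l, stood higher in replicate 1 (values below). Each window is RefSeq's (GRCm38.p6), from 250 bases before the annotated start to 50 after it, read 5′ to 3′ on the gene's strand; for Gm20559, which has 3 windows, the first listed is shown, while the counts over genes below use every window of a gene. Capitals mark matches, on either strand, to 3 motifs: the core of the interferon-stimulated response element (GAAA, any 2 bases, GAAA), its shorter form (GAAA, any 2 bases, GAA) and a wider form (GAAA, any 3 bases, GAAA). Every core match also contains the shorter form, and matches may overlap each other, so a run in capitals can hold several.
The windows are AW011738 (chr4:156203034-156203333, plus strand), Isg15 (chr4:156200769-156201068, minus strand), Gm20559 (chr6:3346092-3346391, minus strand) and Samd9l (chr6:3399522-3399821, minus strand).
AW011738: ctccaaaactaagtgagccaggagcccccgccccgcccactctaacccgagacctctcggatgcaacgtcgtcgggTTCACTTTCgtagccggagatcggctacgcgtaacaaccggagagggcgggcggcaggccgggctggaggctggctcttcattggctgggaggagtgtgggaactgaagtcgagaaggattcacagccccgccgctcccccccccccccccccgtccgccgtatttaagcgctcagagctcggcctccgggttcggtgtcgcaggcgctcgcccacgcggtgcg
Isg15: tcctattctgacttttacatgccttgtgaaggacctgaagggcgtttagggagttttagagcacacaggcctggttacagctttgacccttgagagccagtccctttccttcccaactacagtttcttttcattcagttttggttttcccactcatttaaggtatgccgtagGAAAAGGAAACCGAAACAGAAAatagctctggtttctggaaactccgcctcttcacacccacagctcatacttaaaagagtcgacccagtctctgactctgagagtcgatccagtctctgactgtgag
Gm20559: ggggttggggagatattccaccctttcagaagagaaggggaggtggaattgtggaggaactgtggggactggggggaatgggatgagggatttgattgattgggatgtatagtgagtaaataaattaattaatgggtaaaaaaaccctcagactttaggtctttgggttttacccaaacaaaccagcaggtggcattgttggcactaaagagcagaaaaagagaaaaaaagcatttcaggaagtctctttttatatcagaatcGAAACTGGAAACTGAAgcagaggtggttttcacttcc
Samd9l: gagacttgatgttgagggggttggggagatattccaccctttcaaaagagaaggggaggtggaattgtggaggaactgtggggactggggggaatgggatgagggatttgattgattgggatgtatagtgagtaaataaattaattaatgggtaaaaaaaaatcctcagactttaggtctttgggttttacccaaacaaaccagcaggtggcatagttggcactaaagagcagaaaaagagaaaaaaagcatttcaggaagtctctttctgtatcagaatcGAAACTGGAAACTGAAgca
The Isg15 window held 3 matches to the core, and the other three windows held none. AW011738 held 1 match to the shorter form, and the Gm20559 and Samd9l windows each held 1 match to the shorter and 1 to the wider form. The Gm20559 and Samd9l windows were near copies of each other, with 277 of 284 aligned columns identical (97.5%). Of the 56 members with a window, 2 held the core (9130024F11Rik and Rab10os), against 3.99% of 27025 genes and 3.44% of all 32851 windows. The shorter form was in windows of 5 of 56 members and 9.76% of all genes, and the wider form in 4 of 56 and 3.17% of all genes. These other two motifs were added after the windows had been seen. CGCG, a mark of CpG-dense sequence whose 2 strands read alike, was in the windows of 33 of 56 members (58.9%) and of 40.6% of all genes with a window. A match is a description of letters and not a site of binding.

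By gene type the members were 30 processed transcripts, 29 lincRNAs, 19 antisense RNAs, 5 bidirectional promoter RNAs and 2 sense intronic RNAs, with none of type lncRNA or sense_overlapping. The share of eligible rows that were members was 10.1% of 297 processed transcripts, 5.08% of 571 lincRNAs and 3.36% of 565 antisense rows. Most eligible rows were low, with 1061 means below 1 and 488 from 1 to under 10. Among the members 52 had a mean from 10 to under 20, 14 were at 50 or more and 6 at 100 or more. Just inside the minimum stood Tbx3os1 (mean 10.1), E130307A14Rik (10.3), Gm20634 (10.7) and 2610035D17Rik (10.7). Just outside it stood 2500004C02Rik (9.93), Gm14230 (9.84), Gt(ROSA)26Sor (9.76) and 9130221H12Rik (9.52).

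Annotations disagreed about several members. GENCODE M21 lists AW011738 and Gm10762 as protein coding, and RefSeq lists Gm46430, Gm5165, Ifi30 and Trerf1 as protein coding and Gm10076 as a pseudogene. RefSeq called 60 members lncRNA or antisense RNA, and 20 had no RefSeq entry under their symbol. Ifi30 encodes a lysosomal thiol reductase and Trerf1 a transcriptional regulator, so their rows may hold coding transcripts. Ifi30 had normalized counts of 20.6, 24.9 and 32.1 in replicates 1, 2 and 3, lowest in replicate 1. The gene models had a median exon length of 3708 bases and a median of 4 exons in the transcript with most exons, against 5025.5 bases and 10 exons for protein-coding rows with a mean of at least 10. Models of 1 exon only made up 17 members (20.0%), against 1.62% of those coding rows.

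Levels across the members spanned Malat1 to Tbx3os1. Values are normalized counts, scaled by the authors to a common upper quartile and not divided by length, in replicates 1, 2 and 3 in that order, and levels of different genes are compared only per kilobase of exon. Malat1, a nuclear RNA of the splicing speckles, stood at 1756, 1374 and 948 (mean 1359 ± 404, SD, n = 3). Replicate 1 was the highest and replicate 3 the lowest, 0.89 apart on the log2(value + 1) scale, the scale of every log2 value here. Its share of the members' summed signal was 33.9%, 29.6% and 24.2%.

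2900097C17Rik, the mouse NORAD gene whose cytoplasmic RNA binds Pumilio proteins, was at 767, 737 and 678 (727 ± 45.5, SD, n = 3). Oip5os1, the conserved RNA Cyrano known for directing the decay of miR-7, was at 302, 304 and 277. Both varied far less between libraries than Malat1, with an SD of log2 of 0.09 and 0.07 against 0.45. Per kilobase of exon, Malat1 had 194.7, 2900097C17Rik 148 and Oip5os1 35.4 normalized counts on the mean over libraries, while the median member had 5.59 and the median protein-coding row with a mean of at least 10 had 8.57. Neat1, which builds the paraspeckle, was at 78.9, 66.8 and 65.8 but at only 3.39 per kilobase over its long model.

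The members held 0.525%, 0.484% and 0.405% of all signal in the 3 libraries (0.471 ± 0.0611%, SD, n = 3). Their 3 highest rows carried 54.5%, 52.0% and 48.6% of that, and their 10 highest 68.1%, 66.3% and 63.8%. Without division by length the median mean was 16.1 for members and 41.7 for protein-coding rows with the same minimum, whose models are longer, so these 2 values are not compared.

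Further members that the naming rule takes, by level or by type, are given here by value. The lincRNA Gm37494 was at 100.9, 108.9 and 89.9. B230354K17Rik, which overlaps the splicing factor gene Cdc5l, was at 65.5, 77.7 and 64.7. Cep83os, starting 78 bp from Cep83, a centriole gene, was at 28.2, 22.3 and 21.4. Replicate 3 was the lowest for these 3 members and for B930095G15Rik, a sense intronic RNA at 14.4, 12.01 and 8.78. It was also the lowest for Gm12940, which overlaps the splicing factor gene Sfpq and stood at 20.9, 16.4 and 11.9.

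**Figure D1:**
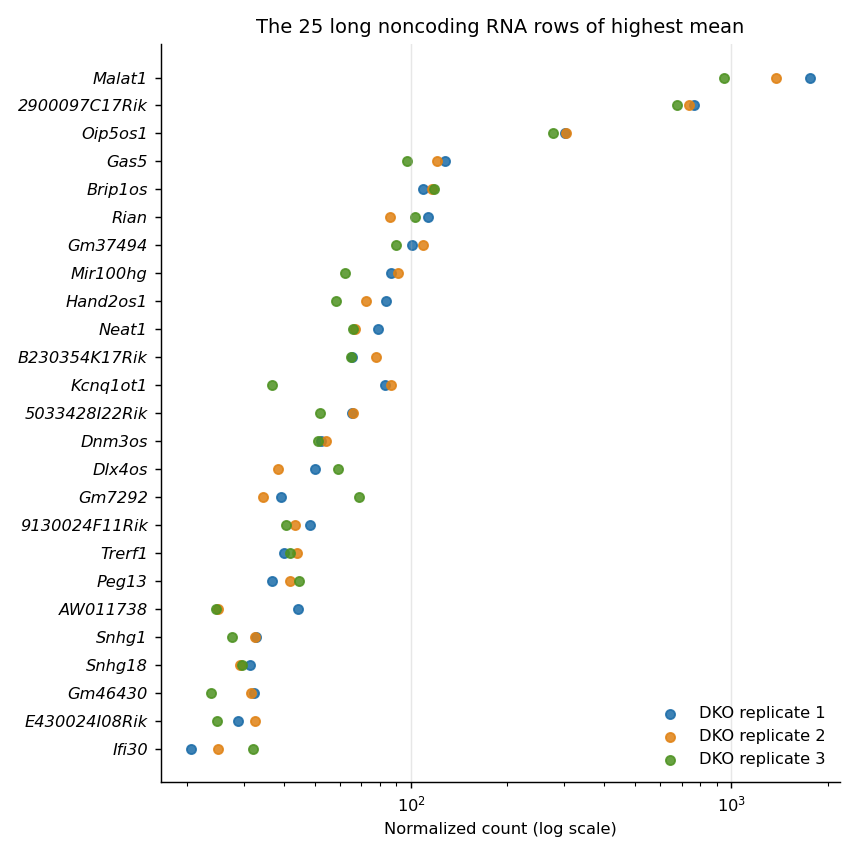
The 25 members of highest mean are listed from top to bottom by mean normalized count, with 1 point for each DKO library on a log axis. Values are not divided by length; Malat1 spans 948 to 1756, and for Kcnq1ot1 replicate 3 stands apart at 36.9.

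Of 16 snoRNA host genes listed in the table, 9 were members. These genes are transcribed to provide intronic snoRNAs, which guide chemical modification of ribosomal RNA. Gas5 was at 128, 121 and 97.4, Snhg1 at 32.9, 32.7 and 27.6, and Snhg17 at 25.6, 19.6 and 17.5. Snhg18 was the steadiest, at 31.5, 29.2 and 29.7. Zfas1, Snhg5, Snhg8, Snhg12 and Snhg6 had means between 11.1 and 17.7. The lowest value lay in replicate 3 for 8 of the 9, Snhg18 being the exception. Of all members 69.4%, and of all rows with a mean of at least 10 34.2%, were lowest in that library. The list's median deviation from each row's own log2 mean was 0.11, 0.07 and -0.19 in the 3 libraries.

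Small RNA genes of any name lay inside 16 members. By the gene type in GENCODE M21, which types Mir5117 within Gas5 as a snoRNA, a snoRNA gene lay in 12 of them, with 52 snoRNA genes in all, 13 in Rian and 10 in Gas5, and a miRNA gene in 5. The short rows 1110038B12Rik (17.3, 16.9 and 16.3), chosen after its values were seen, and 2410006H16Rik (14.9, 17.9 and 15.3) also held snoRNA genes without being named for them. Whether the reads came from spliced host RNA or from the small RNAs could not be told apart from gene-level values.

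Of 9 miRNA host rows in the table, 3 were members. Mir100hg, whose miRNAs are printed above, was at 86.5, 91.3 and 62.3, with replicate 3 below the others. Dnm3os, known in embryonic mesenchyme and skeletal growth as the source of miR-199a and miR-214, was at 52.2, 54.3 and 51.2, a coefficient of variation of 2.98%. Dleu2 was at 14.8, 14.7 and 11.0. Dnm3os lies within Dnm3 on the opposite strand (Dnm3 at 58.5, 50.5 and 41.5), and the strand setting of the counting is not given in the sources used here, so reads of overlapping genes cannot be assigned with certainty. That limit applies to the 38 members that overlap a protein-coding row, 29 of them on the opposite strand and 11 on the same strand. In 3 of the 38 the only such row was Galnt2l, whose listed span of 4434882 bases covers many other genes.

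Imprinted clusters, in which a long noncoding RNA is made from 1 parental chromosome, gave 3 members of 8 rows in the table. Rian, from the imprinted cluster that also holds Dlk1, was at 113, 86.2 and 103, and Dlk1 itself at 143, 117 and 166. Replicate 2 was the lowest for both. Rtl1, the coding row starting nearest to Rian, had a mean below 10 and was lowest in replicate 1, at 4.81, 10.4 and 12.2. Peg13, within Trappc9, was at 36.9, 41.8 and 44.8. Kcnq1ot1, the antisense RNA that silences neighbours including Cdkn1c on the paternal chromosome, was at 82.8, 86.5 and 36.9. Its replicate 3 value was below both others, and its SD of log2 of 0.68 was the second highest among members.

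Kcnq1, whose gene contains the start of Kcnq1ot1, was at 1.98, 0.907 and 1.86, and Cdkn1c, a cell cycle inhibitor, at 334, 246 and 212. Kcnq1ot1 had the lowest level per kilobase of all members, 0.738, since its model is a continuous exon of 93092 bases. In bulk tissue, fewer cells of a type and less RNA per cell cannot be told apart.

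Several members sit beside genes of tooth and jaw patterning. Hand2os1, the antisense neighbour of Hand2, a transcription factor of the mandibular arch, was at 83.3, 72.4 and 58.3, while Hand2 was at 183, 215 and 216. The member was highest, and Hand2 lowest, in replicate 1. Hand2os1 overlaps Hand2 (chromosome 8). In the same stretch of chromosome 8, beyond Hand2, lay 5033428I22Rik (65.4, 65.9 and 52.1) and Gm34030 (13.7, 10.5 and 18.0), which overlap each other. Their highest libraries differed, replicate 2 for 5033428I22Rik and replicate 3 for Gm34030.

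Dlx4os, which overlaps the homeobox gene Dlx4, was at 50.2, 38.4 and 59.2, beside 77.2, 67.3 and 64.7 for Dlx4. Dlx4os was highest in the library where Dlx4 was lowest. Dlx1as, antisense to Dlx1, was at 16.1, 13.8 and 9.88, beside Dlx1 at 65.7, 51.2 and 54.6. Tbx3os1 was at 11.7, 11.0 and 7.76 beside Tbx3 at 104, 104 and 109. Foxd2os was at 13.2, 11.8 and 11.0 beside Foxd2 at 15.7, 13.4 and 18.0. These 4 were the members among 9 rows in the table that are named after a developmental regulator of the list used, and 3 of the 4 were lowest in replicate 3, beside 69.4% of all members and 34.2% of all rows.

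Fendrr, divergent from the mesenchymal transcription factor gene Foxf1, was at 30.9, 21.5 and 22.0 beside Foxf1 at 118, 131 and 121. Dio3os was at 29.2, 20.7 and 25.3 beside Dio3, a thyroid hormone deiodinase, at 57.8, 50.1 and 63.8. Snhg18 starts 148 bp from Sema5a, an axon guidance gene that stood at 588, 485 and 565. AI606473, Prdm16os and Gm6556, chosen after their values were seen, start 162, 703 and 501 bp from Lhx8, Prdm16 and Gli3.

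Per kilobase of exon and within each library, the log2 difference of member minus neighbour was -3.75 ± 0.34 for Hand2os1 and Hand2 (SD, n = 3). It was -2.64 ± 0.32 for Fendrr and Foxf1 and -2.03 ± 0.27 for Tbx3os1 and Tbx3. It was nearer 0 for Dio3os and Dio3 (-0.88 ± 0.17), Foxd2os and Foxd2 (-0.58 ± 0.24) and Snhg18 and Sema5a (-0.50 ± 0.10). Only Dlx4os among the 11 pairs computed had a mean above its neighbour on this scale, by 0.44 ± 0.34. The order of the pairs depends on the division by length. Without it, Snhg18 minus Sema5a was -4.13 ± 0.11 and Hand2os1 minus Hand2 was -1.52 ± 0.38. No test was made, because 3 libraries cannot give an exact sign-flip p below 0.25.

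Over all members, 37 had a protein-coding row starting within 5 kb of their own start and 26 within 1 kb, and 20 of the 37 faced it head to head on the opposite strand. In 34 of these pairs the coding row had a mean of at least 10. Per kilobase, the coding row was the higher of the pair in 28 of the 34. The 6 exceptions were Gas5, Brip1os, Dlx4os, 1110002L01Rik, Gm21781 and Gm10762. Brip1os (109, 116 and 118), at 17.6 per kilobase beside 2.22 for Brip1, a DNA repair helicase gene, was the widest of these. Brip1os, Dlx4os, 1110002L01Rik and Gm10762 overlap coding rows within exons of both, so their reads cannot be assigned with certainty. The minimum of 10 left out pairs with a low coding row, and in those the member was higher per kilobase. They were Rian and Rtl1 (5.52 and 1.44), B130055M24Rik and Zfp689 (5.90 and 1.61) and Gm20634 and H2ac18 (3.61 and 0.371). No share over all rows was computed for which of a pair was higher. Member and neighbour were highest in the same replicate in 13 of 34 pairs, against 38.9% of 1624 rows over the whole table that had such a neighbour, so the members' share is near that background.

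**Figure D2:**
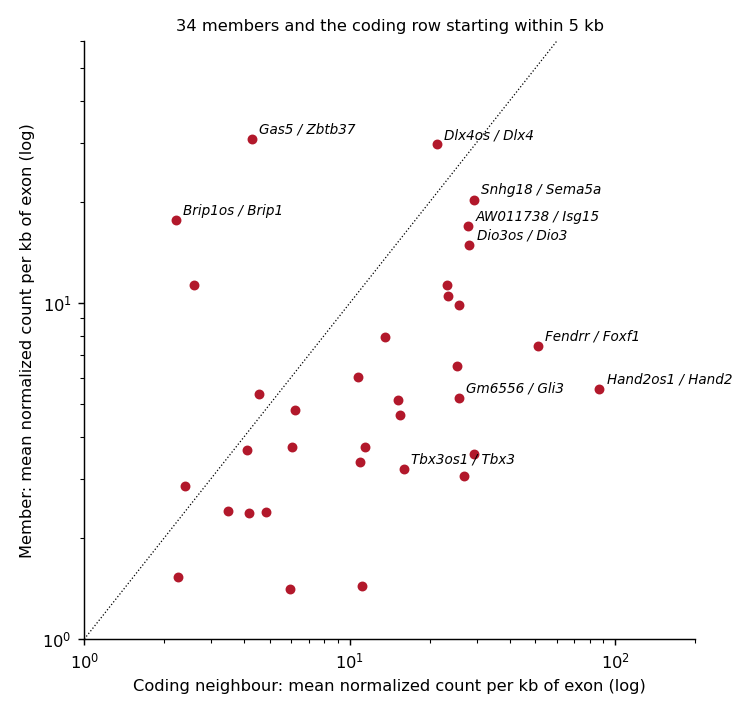
Each point is 1 of the 34 members with a coding row of mean at least 10 starting within 5 kb, plotted as mean normalized count per kilobase of exon (vertical, log) against that of the coding row (horizontal, log), and the dotted line marks equal levels. Of the 34 points 28 lie below the line, Hand2os1 the farthest right.

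Members varied more between libraries than coding rows of similar level. The median SD of log2 was 0.19 for members and 0.10 for protein-coding rows, and the median coefficient of variation 14.01% against 7.10%. The spread was not particular to members. With the same minimum the median SD of log2 was 0.17 for 88 processed pseudogenes. It was 0.18 for 5 rows of type TEC (predicted transcripts yet to be tested experimentally). In bins of the mean the medians of members and coding rows were 0.19 and 0.13 from 10 to 20, 0.24 and 0.10 from 20 to 50, and 0.19 and 0.08 from 50 to 200. Above 200, where only 3 members lie, both were 0.09. From 1 to under 10, below the minimum, eligible rows had a median of 0.19 and coding rows 0.18. Without replicate 3 the rule took 92 members, whose median was 0.10. That is an SD over 2 libraries and was not computed for coding rows, so it is not compared with the values above. If the smallest listed value stands for 1 read, counting error at a value of 10 would be 4.83% to 5.40%.

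An SD of log2 above 0.5 was reached by 4 members (4.71%), Gm20559, Kcnq1ot1, Gm7292 and Gm10076. The background over all rows with a mean of at least 10 was 1.89%. Without replicate 2 the count was 7, by an SD over 2 libraries, and no share over all rows was computed for it. The smallest SD of log2 belonged to B130055M24Rik, at 11.5, 11.7 and 12.02, a row picked for that value.

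**Figure D3:**
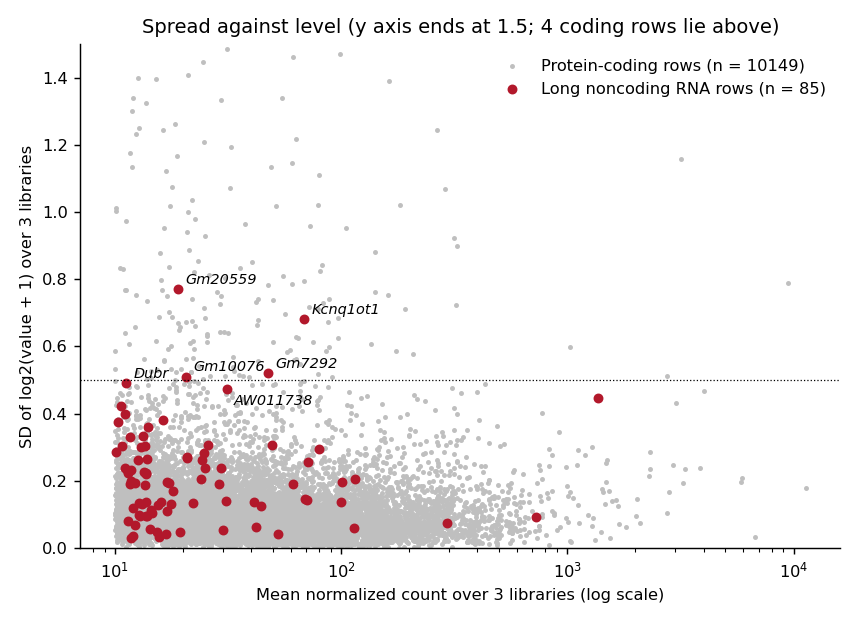
The SD of log2(value + 1) over the 3 libraries is plotted against the mean normalized count (log axis) for 10149 protein-coding rows in grey and the 85 members in red. The 4 members above the dotted line at 0.5 are Gm20559, Kcnq1ot1, Gm7292 and Gm10076.

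The members leaned towards low values in replicate 3. The lowest of the 3 values was in replicate 3 for 59 of 85 members (69.4%), against a background of 34.2% over all rows with a mean of at least 10. The highest was in replicate 1 for 44 (51.8%), where the background was 31.2%. In the opposite direction, 11 members were highest in replicate 3 (background 34.6%) and 11 were lowest in replicate 1 (background 38.1%). The median deviation from a row's own log2 mean was 0.11, 0.04 and -0.15 for members in the 3 libraries, and -0.01, 0.01 and 0.00 for all rows.

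The lean was found in subsets of members. Replicate 3 was lowest in 28 of 38 members that overlap a coding row and in 31 of 47 that overlap none, and in 21 of 29 lincRNAs, 15 of 19 antisense RNAs and 18 of 30 processed transcripts. It was also lowest in 13 of 17 members with models of 1 exon only. Among the 5 RNAs listed as nuclear or widely expressed (Malat1, 2900097C17Rik, Oip5os1, Neat1 and Kcnq1ot1) all had their lowest value there, while Brip1os, Rian, Dlx4os, Peg13 and Fendrr did not.

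Rows that the rule did not take were also counted. Of 488 eligible rows with a mean from 1 to under 10, 49.0% were lowest in replicate 3, against 34.3% of 3298 protein-coding rows in that range. In the same range, 62.7% of 158 rows of type TEC, predicted transcripts yet to be tested experimentally, and 40.5% of 353 processed pseudogenes were lowest there. At the members' own minimum the counts were 4 of 5 TEC rows and 37 of 88 processed pseudogenes, and the pseudogenes' median deviation in replicate 3 was -0.02 against -0.15 for members. The summed signal of those 88 pseudogenes was 2444, 2550 and 2718 in replicates 1, 2 and 3, highest where that of the members was lowest. Firre, a nuclear RNA on the X chromosome and so outside the rule, was at 78.5, 60.4 and 51.0.

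Other measures moved with the libraries too. Replicate 3 had the highest total if the smallest value is 1 read, 41477624 reads against 33863066 and 34900647. The summed level of 8 odontoblast markers was 18751, 10028 and 23645 in the 3 libraries, with 7 of the 8 at a mean of at least 10. That of 5 endothelial markers was lowest in replicate 1 and highest in replicate 3, 299 and 417, with all 5 at 10 or more, and that of 13 dental mesenchyme markers lay between 3737 and 3978, all 13 at 10 or more. Sums for 9 dental epithelium markers, all at 10 or more, lay between 833 and 1305, for 6 macrophage and leukocyte markers between 729 and 1032, and for 4 Schwann cell markers, of which 1 reached 10, between 13.7 and 29.7. The part of depth or of cell types in the lean was not tested. With libraries rescaled to equal totals replicate 3 was lowest in 57 members and 31.5% of all rows, and after rRNA and mitochondrial rows had been removed in 60 members and 39.1% of all rows.

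**Figure D4:**
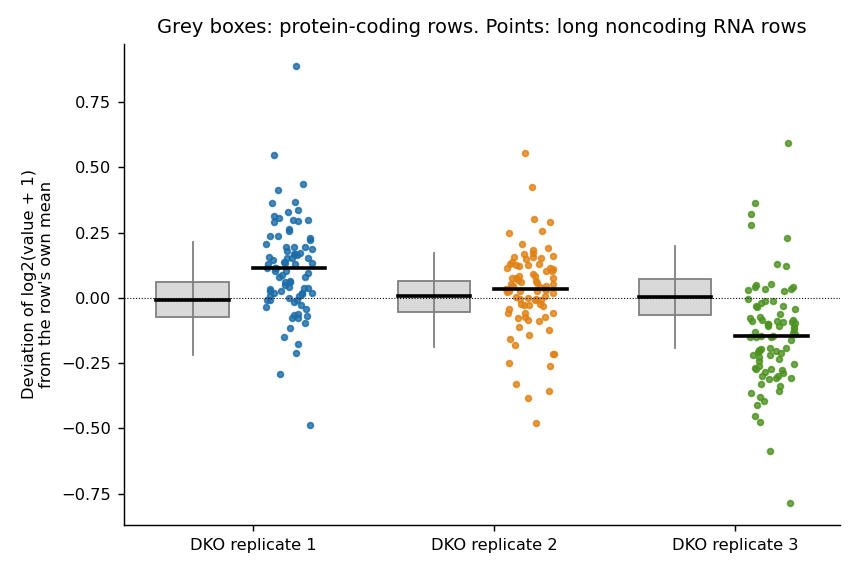
For each library the deviation of log2(value + 1) from the row's own mean is shown, with coding rows of mean at least 10 as a grey box (quartiles, with whiskers at the 5th and 95th percentiles) and members as points, black lines marking medians. The members' median lies at 0.11 in replicate 1 and at -0.15 in replicate 3.

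Differences of at least 1.5-fold between 1 library and both others were counted for each library, beside the share over all rows (background). Replicate 1 was higher by this measure for 3 members (3.53%, background 1.34%) and lower for 1 (1.18%, background 0.799%). Replicate 2 was higher for 1 member (1.18%, background 0.193%) and lower for none (background 0.549%). Replicate 3 was higher for 1 member (1.18%, background 0.289%) and lower for 3 (3.53%, background 0.433%). Except for lower in replicate 2, the members' share was above the background, and each share rests on at most 3 members.

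The 3 members higher in replicate 1 were Gm20559 at 32.5, 12.01 and 12.6, AW011738 at 44.5, 24.97 and 24.5 and E130307A14Rik at 13.9, 8.52 and 8.48. In each of them replicates 2 and 3 were close together. AW011738 starts 2474 bp from Isg15, a ubiquitin-like protein induced by interferon, in a head-to-head arrangement. Isg15 was at 47.5, 8.57 and 7.41, so both were highest in replicate 1, Isg15 by the larger factor.

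Gm20559 starts 53444 bp from Samd9l, an interferon-induced antiviral gene that was at 123, 76.3 and 64.5. Gm43197, a row of type TEC inside Gm20559 and outside the member types, was at 11.9, 5.91 and 5.24. Because their promoter windows are near copies, printed above, shared sequence between the transcripts was examined. Of 4686 words of 50 bases in Gm20559 transcripts, 23 (0.491%) also occurred in Samd9l, and 6.27% in any gene that does not overlap Gm20559. The summed level of 9 interferon response markers, Isg15 among them and all at a mean of at least 10, was 1630 in replicate 1, 377 in replicate 2 and 396 in replicate 3. Its part in the levels of AW011738 and Gm20559 was not tested.

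E130307A14Rik starts 111 bp from Rev3l, a DNA polymerase subunit gene that was at 134, 164 and 146, and overlaps Traf3ip2 (9.76, 9.01 and 8.99). Neither neighbour was highest in replicate 1 by 1.5-fold. Gm20634, the member lower in replicate 1, was at 7.11, 12.6 and 12.3 and overlaps the histone genes H2ac18 and H3c14. It shared 48.2% of its 50-base words with other genes, so its level is uncertain.

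Dubr was higher in replicate 2, at 9.41, 16.3 and 8.06. The members lower in replicate 3 were Kcnq1ot1, Gm10076 at 25.3, 23.7 and 12.9 and 4632427E13Rik at 12.2, 13.6 and 7.66. Gm10076 shared 69.9% of its 50-base words with other genes, all of these with Rpl41, a ribosomal protein gene, so its level is uncertain. The member higher in replicate 3 was Gm7292, at 39.1, 34.6 and 69.0. Of its 50-base words 77.5% also occurred in 2900097C17Rik, the NORAD gene, and 39.5% of those of 2900097C17Rik in Gm7292. The levels of both rows are therefore uncertain, since how reads with several matching places were counted is not given in the sources used.

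**Figure D5:**
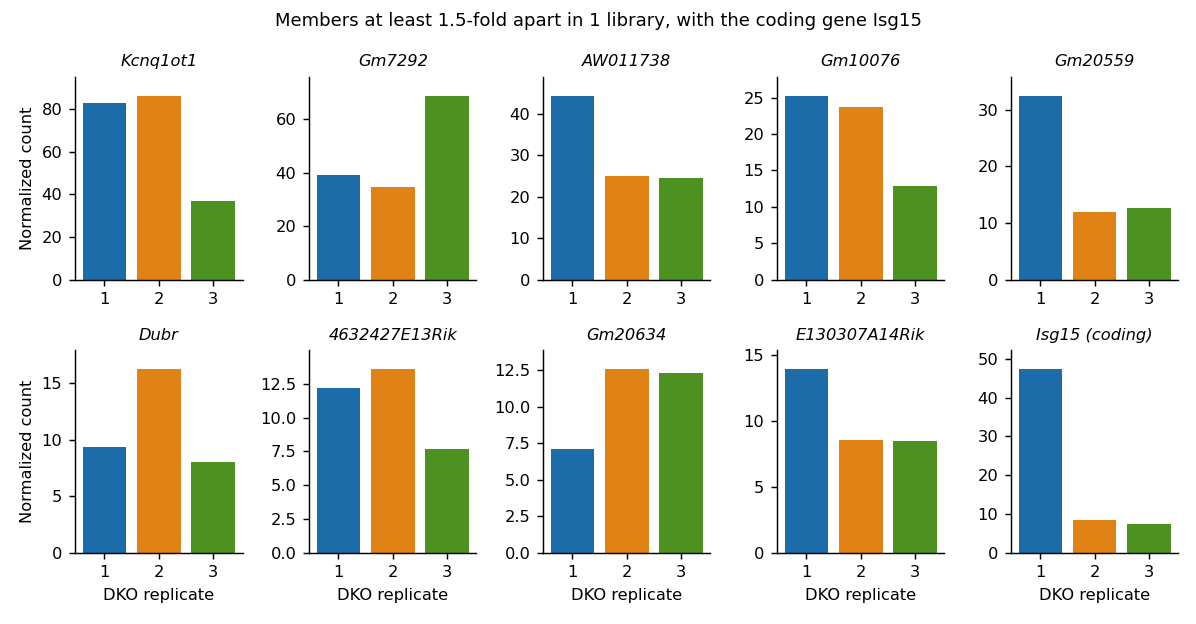
Bars give the normalized count in DKO replicates 1, 2 and 3 for the 9 members with 1 library at least 1.5-fold from both others, and for the coding gene Isg15, each panel on its own axis from 0. Gm20559, AW011738, E130307A14Rik and Isg15 are highest in replicate 1, and Gm7292 in replicate 3.

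Sharing of sequence touched other members as well. At least 10% of 50-base words were shared with genes elsewhere by 12 members and at least 50% by 6, while 35 shared none. Genes whose span overlaps the member were left out of this count. It therefore misses sequence shared with overlapping genes, and 30 members overlap a coding row within exons of both. Gm50321 (73.3%), Gm42047 (64.8%), Gm47547 (64.6%) and Gm49083 (57.6%), chosen after their values were seen, completed the 6. Without the 12, replicate 3 was lowest in 71.2% of the remaining members.

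Many long noncoding RNAs known from other settings stayed below the minimum. Airn, the imprinted antisense RNA of Igf2r, was at 6.90, 7.77 and 6.08, Pvt1 at 6.55, 4.37 and 4.44 and Snhg14 at 11.97, 9.56 and 6.92. Mir22hg was at 8.88, 6.66 and 7.99 and Mir17hg at 8.27, 4.04 and 4.03. Miat (0.583, 0.400 and 0.606), Lncpint (0.757, 0.330 and 0.163) and Runx2os1 (0.495, 0.275 and 0.885) were below 1 in every library. AW112010, a leukocyte RNA known to respond to interferon, was at 5.45, 2.99 and 2.42, highest in replicate 1.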

How the data were processed

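RNA of proximal incisor mesenchyme from 3 DKO libraries was examined. The authors deposited gene-level signal, called normalized counts in the table, scaled to a 75th percentile of 44.7 in each library and not divided by length; totals were 986401, 958773 and 966163. Reads were aligned with TopHat2 2.0.8 to mm10, per the submitters' processing notes. The sources used here do not give the counter, annotation, strand setting or filters. Whole reads were not recovered: 82.4% to 82.6% of values up to 20 times the smallest were near a whole multiple of that value (tolerance 0.1).

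Members, lists and tests were chosen with earlier results of these data known. Logarithms are log2(value + 1). A library was called at 1.5-fold from both others, and spread at an SD of log2 above 0.5. Exon lengths came from GENCODE M21 (85 of 85 members matched), and sequences and biotypes from RefSeq GRCm38.p6. Neighbours were the nearest protein-coding starts within 5 kb, and shared sequence was counted in 50-base words of transcripts on either strand. Genes that overlap the member were left out of the count of shared words. With 1 group, no test between groups was made. Percentages over members have no p. The calls were tested on simulated data. Among 10388 rows with an SD of log2 of 0.1, 200 were shifted 2-fold in 1 library. The 1.5-fold call recovered 200 and the SD call 157, and neither called any other row. That simulated spread is below the members' median SD of log2 of 0.19, so recovery and false calls at the members' spread were not examined.

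Named members were the 15 of highest mean, the 10 of highest level per kilobase, the 12 of largest log2 range, list members, the 3 highest of each type, those within 5 kb of a marker gene, and the 4 rows on either side of the minimum. Other members named for an annotation, a motif, shared sequence or a neighbour were picked with their values in view. Alternatives were other minimum means, scalings, pseudocounts, folds and lengths, and leaving out each library, members that overlap coding rows, the 2 highest members, or members with shared sequence or listed elsewhere as coding. Python 3.11.15, pandas 2.3.3 and numpy 2.4.6 were used.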

Additional observations from a re-analysis of the deposited data

How the results depend on the processing

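Of 202 alternative values, 135 stayed within the spread between libraries, within 1.5 times the count or, for percentages, within a binomial interval. That exact interval treats members as independent, though they share the same libraries. Another 65 values moved and 2 changed direction. The direction changed when length was taken into account: Dlx4os minus Dlx4 went from -0.51 to 0.44 per kilobase, and AW011738 minus Isg15 from 0.98 ± 0.94 to -0.24. The other 31 of 33 pair alternatives kept their direction. The percentages of members lowest in replicate 3 and highest in replicate 1 were added after seeing the data. No share over all rows was computed for the counts of called members in the alternatives below.

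With a mean of at least 5 there were 169 members, with a median of 10.1 and of 3.47 per kilobase, and 78 overlapped a coding row; 8 had an SD of log2 above 0.5, and at 1.5-fold 8 were higher and 2 lower in replicate 1, 2 higher in replicate 2 and 7 lower in replicate 3. With a mean of at least 20 there were 33 members, with a median of 44.2 and of 7.46 per kilobase and 0.398% of signal, and 13 overlapped a coding row; 1 was higher and 0 lower in replicate 1 and 0 higher in replicate 2. With at least 10 in every library the median was 17.7, and 0 were lower in replicate 1 and 0 higher in replicate 2. The 47 members that overlap no coding row had a median of 17.4 and 0.363% of signal, with 0 lower in replicate 1. These shifts follow from the change of members.

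Without the 12 members that share sequence, chosen after seeing the data, the share of signal was 0.375%, 2 had an SD above 0.5, and 0 were lower in replicate 1 and 0 higher in replicate 3. Without the 2 highest members the share was 0.257%. A pseudocount of 10 gave a median SD of 0.13 and 2 members above 0.5. At 2-fold, 1 was higher and 0 lower in replicate 1, 0 higher in replicate 2, and 0 higher and 1 lower in replicate 3. Gene span in place of exon length gave 1.94 per kilobase.

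Leaving out each library in turn gave a median level of 15.2 to 16.8, a median SD of log2 of 0.10 (without replicate 3) to 0.20, and 3 to 7 members with an SD above 0.5. At 1.5-fold between the 2 libraries left, 4 to 11 members were higher and 1 to 2 lower in replicate 1. In replicate 2, 1 to 5 were higher and 3 to 4 lower, and in replicate 3, 2 to 3 higher and 5 to 11 lower. With 2 libraries left, a member higher in 1 is lower in the other by the same call. These counts are therefore not separate results for each library. This call rests on 1 pair of libraries and is looser than the call from both others, and no share over all rows was computed for it. Replicate 3 was the lower in 75.9% of members without replicate 1 and 80.2% without replicate 2, where all rows gave 51.6% and 48.1%. Without replicate 2, the members with replicate 1 the higher are the same 80.2%. Without replicate 3, replicate 1 was the higher in 59.8%, where no share over all rows was computed.

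No paired analysis was possible because there is only 1 group. If the smallest value is 1 read, counting error at 10 is 4.83% to 5.40%, near or above the spread of the steadiest rows. Members with a mean from 10 to under 20 had a median coefficient of variation of 14.1%. The part of depth in their spread was not tested.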
